A study of Mus musculus with 18 samples.

Results

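The type I interferon-stimulated genes described here are 47 mouse genes listed by symbol, and 46 of them had a row in the count table and passed the filter on low counts. Mx1 had no row and was not analysed here. The list was taken across all 18 libraries of a bulk RNA-seq study of bone marrow-derived macrophages (BMDMs), in which 12021 of the 16314 genes in the table were tested.

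Prep encodes prolyl endopeptidase, an enzyme that cleaves small peptides next to proline. Femoral marrow of Prep-/- mice and of their Prep+/- littermates, both on the C57BL6/J background, was cultured with M-CSF at 50 ng/ml for 7 days, so that every group carried at least 1 disrupted Prep allele and no wild-type group was compared. BMDMs of each genotype were then unstimulated (M0), or received LPS at 50 ng/ml for 24 h (M1), or IL-4 and IL-13 at 20 ng/ml each for 24 h (M2), which gave 6 groups of 3 libraries. The labels number the libraries of a group but do not say which mouse or culture a number stands for, so that p-values measure the spread between these libraries. Each culture was sequenced in bulk, so that fewer cells of a type and less RNA per cell cannot be told apart.

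Type I interferons bind the receptor chains IFNAR1 and IFNAR2, and the kinases JAK1 and TYK2 then phosphorylate factors of the STAT family. With IRF9 these form the factor ISGF3, which binds the interferon-stimulated response element (ISRE) in the promoters of its targets. In macrophages LPS acts through TLR4 and the adaptor TRIF to induce interferon beta, which acts back on the same cells. The products of the listed genes sense viral RNA and DNA, degrade RNA, block translation or viral release, or modify proteins with ISG15, ubiquitin or ADP-ribose.

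Values below are CPM, the counts of a gene relative to the total of its library after TMM scaling, given for replicates 1, 2 and 3 in that order, and every group has n = 3. Log2 fold changes are given ± SE from edgeR's quasi-likelihood fit, and a gene was called when its Benjamini-Hochberg adjusted p over all 12021 genes was under 0.05 and its fold change over 1.5. Prep itself was at 30.1, 34.9 and 42.5 CPM in Prep+/- M0 and at 1.99, 2.01 and 1.48 CPM in Prep-/- M0, and fell by 4.29, 3.74 and 3.77 on the log2 scale in M0, M1 and M2. Library totals lay between 19068237 and 22598279 counts, and 3 counts, the floor used for single libraries, stood for 0.118 to 0.182 CPM. The summed CPM of 8 macrophage markers, among them Csf1r and Adgre1, ranged from 10027 to 48180 and moved with state and genotype. In no group was any of the 8 at that floor in all libraries, and the sum does not show each marker singly.

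Within a group the same library was often the highest. Replicate 1 had the highest value of its group for 42 of the 46 members in Prep-/- M0, for 44 in Prep-/- M1 and for 42 in Prep+/- M2, and replicate 3 for 34 members in Prep+/- M0. Summed over the members, Prep-/- M1 was at 31744, 17190 and 22910 CPM and Prep+/- M1 at 14165, 14576 and 15091 CPM, and the genotypes did not overlap. In M0 the sums were 5465, 3964 and 4322 CPM in Prep-/- against 2265, 2070 and 2379 CPM in Prep+/-. In M2 they were 2663, 2492 and 2117 CPM against 2621, 1957 and 1826 CPM, and the genotypes overlapped. What sets replicate 1 apart was not tested, and counts that move with it are given with and without it. Over all genes tested, replicate 3 stood furthest from its group in Prep-/- M0 and Prep-/- M2. By chi-square per degree of freedom between 2 libraries, it was at 107 and 114 from replicates 1 and 2 in Prep-/- M0. Those 2 were at 33.7 from each other. In Prep-/- M2 the values were 105 and 105 against 11.4, and the cause was not tested.

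**Figure D1:**
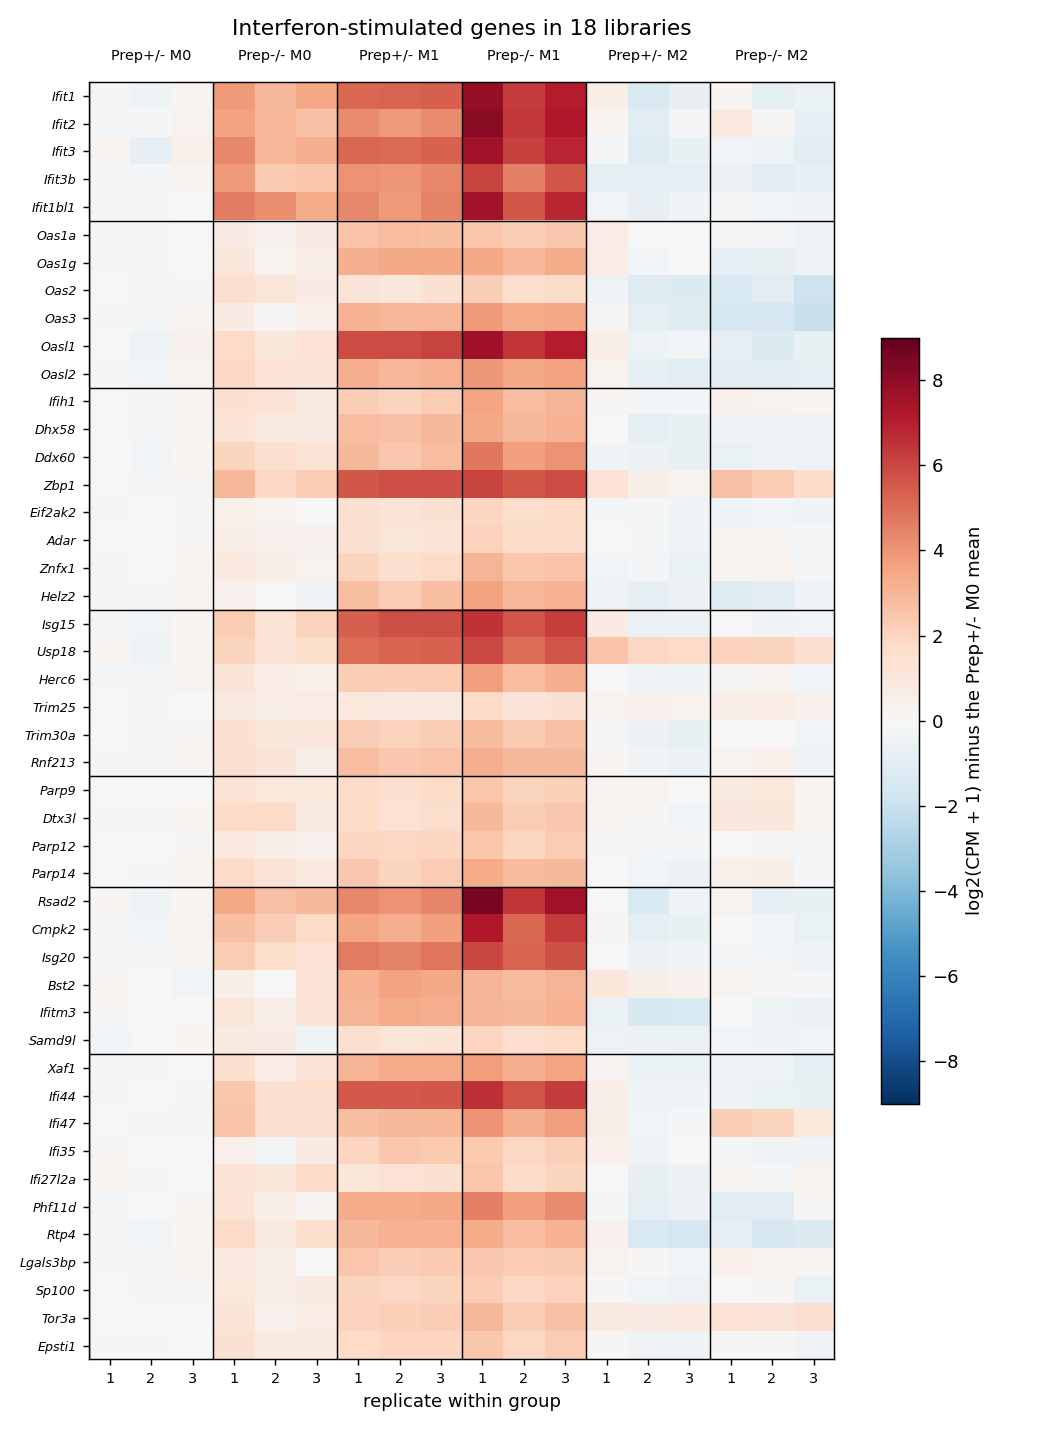
Each row is 1 of the 46 genes and each column 1 of the 18 libraries, ordered by state and genotype. The color is log2(CPM + 1) minus the mean of the 3 Prep+/- M0 libraries. The M1 columns are high throughout, and the Prep-/- M0 columns are raised above Prep+/- M0. In the median the M2 columns of both genotypes lie much nearer to Prep+/- M0 than the M1 columns do. Single rows depart from it in M2: Usp18 in both genotypes and Zbp1 and Ifi47 in Prep-/- lie above, and Oas3 in Prep-/- lies below.

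To show what the promoters share, the bases from 250 before to 50 after each annotated start (RefSeq) were searched on both strands for the core of the ISRE, GAAANNGAAA, in which N is any base. It was found in 15 of the 37 members that had a promoter in the RefSeq table (40.5%), against 3.99% of 27025 genes and 4.0% of 9681 genes tested. The longer form GAAANNGAAACT, which contains the core, was found in 9 of the 37 members (24.3%), against 0.303% of all promoters and 0.465% of those of genes tested. Members with the core were Ifit1, Ifit3, Ifit3b, Ifit1bl1, Oas1a, Oas1g, Oas3, Ifih1, Ddx60, Eif2ak2, Isg15, Trim30a, Rsad2, Bst2 and Ifitm3. Oas2, Dhx58, Zbp1, Usp18, Parp9, Parp14, Ifi27l2a, Rtp4 and Tor3a had no entry. A match describes letters in this window and is not a measured binding site.

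Below are the promoters of the genes with the largest rise in Prep-/- M0 (Ifit1bl1), M1 (Rsad2) and M2 (Ifi47), followed by those of Ifit1 and Isg15, 2 widely used reporters of the interferon response. Each is written 5′ to 3′ on the strand of its gene, with the core motif in capitals, and positions count the first base of a match from the annotated start. The sequences come from RefSeq on GRCm38.p6, and each was found unaltered in GRCm39, the build the reads were aligned to, at the coordinates given. They lie at chr19:34579319-34579618 on the minus strand for Ifit1bl1, chr12:26506402-26506701 on the minus strand for Rsad2, chr11:48967164-48967463 on the plus strand for Ifi47, chr19:34618039-34618338 on the plus strand for Ifit1 and chr4:156285226-156285525 on the minus strand for Isg15.
Ifit1bl1: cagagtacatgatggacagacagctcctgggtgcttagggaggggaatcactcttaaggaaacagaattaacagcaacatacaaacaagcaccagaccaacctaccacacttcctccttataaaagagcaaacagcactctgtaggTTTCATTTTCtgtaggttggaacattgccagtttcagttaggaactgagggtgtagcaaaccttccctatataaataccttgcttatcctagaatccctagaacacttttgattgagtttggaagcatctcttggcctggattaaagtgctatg
Rsad2: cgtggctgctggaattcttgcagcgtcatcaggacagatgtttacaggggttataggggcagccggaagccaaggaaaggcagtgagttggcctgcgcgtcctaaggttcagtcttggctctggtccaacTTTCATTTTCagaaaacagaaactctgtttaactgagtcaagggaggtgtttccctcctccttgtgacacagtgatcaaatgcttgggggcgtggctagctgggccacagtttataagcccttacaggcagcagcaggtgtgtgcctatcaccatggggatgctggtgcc
Ifi47: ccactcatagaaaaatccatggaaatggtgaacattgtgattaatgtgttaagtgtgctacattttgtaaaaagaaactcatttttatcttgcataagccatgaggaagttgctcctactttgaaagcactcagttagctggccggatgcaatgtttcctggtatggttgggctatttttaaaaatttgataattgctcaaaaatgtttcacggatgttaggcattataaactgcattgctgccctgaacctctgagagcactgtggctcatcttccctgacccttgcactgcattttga
Ifit1: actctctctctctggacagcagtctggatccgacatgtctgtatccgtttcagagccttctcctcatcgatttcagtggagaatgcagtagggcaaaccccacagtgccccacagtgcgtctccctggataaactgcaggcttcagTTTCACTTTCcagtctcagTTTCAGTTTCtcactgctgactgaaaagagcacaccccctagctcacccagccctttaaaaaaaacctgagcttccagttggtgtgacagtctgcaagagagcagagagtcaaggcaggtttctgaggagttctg
Isg15: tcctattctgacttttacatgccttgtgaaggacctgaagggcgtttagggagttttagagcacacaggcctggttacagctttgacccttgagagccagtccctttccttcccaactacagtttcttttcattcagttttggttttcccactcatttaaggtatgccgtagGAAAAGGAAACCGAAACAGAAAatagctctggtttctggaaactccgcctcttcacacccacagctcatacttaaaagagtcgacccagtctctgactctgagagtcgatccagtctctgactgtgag
Ifit1bl1 and Rsad2 each held 1 match on the antisense strand, at -104 and -120, with the same letters TTTCATTTTC. Ifit1 held 2 antisense matches, at -104 and -85, and Isg15 held 3 overlapping sense matches, at -78, -72 and -66, which read as 1 run of capitals. No match was found in the Ifi47 window. The median log2 fold change of Prep-/- against Prep+/- was 1.18 over the 15 members with the core and 0.96 over the 22 without it in M0. The medians with and without the core were 0.51 and 0.66 in M1, and 0.04 and 0.16 in M2. The presence of the motif thus went with a higher median knockout effect in M0 and a lower one in M1 and M2. For the LPS response of Prep+/- cells the medians with and without the core were 3.40 and 2.48. No test was made of these medians.

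Several members are neighbors. In GRCm39 the 5 Ifit genes lie within chr19:34527932-34632174, a stretch of 104 kb. Oas2, Oas3, Oas1g and Oas1a lie within chr5:120868398-121046449, and Oasl2 and Oasl1 at chr5:115034997-115075974. Rsad2 and Cmpk2 lie back to back at chr12:26492745-26529836, and Parp14, Dtx3l and Parp9 within chr16:35653231-35792980, where Dtx3l and Parp9 overlap on opposite strands. Ifit3 and Ifit3b transcripts share 97.2% of 2030 aligned bases, and Oas1a and Oas1g 97.6% of 1861. Reads may thus have been split between the copies, and their separate values are uncertain. Matches over less of the transcript include Trim30a with Trim30d (90.3% identity over 46.4% of Trim30a). Phf11d matched Phf11a (94.4% over 44.3% of Phf11d) and Phf11b (92.7% over 30.6%). Reads of Trim30a and Phf11d may have been split in the same way.

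Per kb of canonical transcript, the levels in Prep+/- M0 spanned a wide range. Ifi27l2a (228 ± 27.4 CPM per kb, SD), Bst2 (220.1 ± 40.7), whose product tethers budding virions, and Ifitm3 (183 ± 11.6), whose product hinders viral membrane fusion, stood highest, followed by Lgals3bp (98.5 ± 13.3). The libraries of Bst2 overlapped with those of Ifi27l2a and of Ifitm3, while every Ifi27l2a library lay above every Ifitm3 library. Ifit1bl1 (0.394 ± 0.073 CPM per kb) and Ifi44 (0.294 ± 0.056) stood lowest. These 4 leading genes led in Prep-/- M0 too, with Ifi27l2a at 587 ± 157 CPM per kb. In M1 of either genotype Isg15 took the place of Lgals3bp, and Bst2 led with 2323 ± 419 in Prep+/- and 1733 ± 140.5 CPM per kb in Prep-/-.

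The first comparison asked how loss of Prep altered unstimulated cells. In M0, 38 of the 46 members rose in Prep-/- BMDMs and none fell, where 15.4% of all genes tested rose and 17.2% fell. The median log2 fold change was 1.15 over the members and 0.02 over all genes tested, and all 46 fold changes were positive. Every Prep-/- library lay above every Prep+/- library for 38 members, against 25.6% of all genes tested. For lower values, the edgeR test also had 0 members at an unadjusted p under 0.05, and DESeq2 called 0 lower and 39 higher.

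The IFIT genes, of which some encode proteins that bind viral RNA at its 5′ end and block its translation, rose most. All 5 of 5 were called, with a median of 3.75. Ifit1bl1 was at 1.05, 0.75 and 0.802 CPM in Prep+/- M0 and at 45.2, 32.5 and 17.7 CPM in Prep-/- M0 (log2 fold change 5.20 ± 0.51, adjusted p = 1.607e-06), which is 36.7-fold. Its lowest Prep-/- library was far above its highest Prep+/- library. Ifit3b rose from 1.05, 1.03 and 1.56 CPM to 30.9, 10.5 and 11.5 CPM (3.85 ± 0.46, adjusted p = 8.939e-06), and by 3.17 without replicate 1 of Prep-/- M0. Ifit3 rose from 7.02, 3.2 and 8.66 CPM to 135, 52.7 and 66.3 CPM (3.75 ± 0.46, adjusted p = 1.071e-05), with replicate 1 again the highest. Ifit1 rose from 5.65, 3.83 and 6.57 CPM to 88.2, 46.3 and 68.5 CPM (3.66 ± 0.50, adjusted p = 2.725e-05). In none of these 4 genes did the genotypes overlap, and Ifit2, the remaining family member, rose by 3.25 ± 0.47.

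Of the 2′-5′ oligoadenylate synthetases, which make the second messenger that activates RNase L, and their relatives, 5 of 6 rose in M0, with a median of 0.93. Oasl1 rose from 2.96, 1.78 and 3.93 CPM to 12.1, 6.82 and 8.44 CPM (1.66 ± 0.39), and Oas1a by 0.62 ± 0.16. Oas3 was at 49.1, 51.5 and 64.3 CPM and at 92.8, 58.1 and 75.9 CPM, and did not pass the test (0.46 ± 0.26, adjusted p = 0.1508). Its genotypes overlapped.

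Sensors of nucleic acid and enzymes of translation and RNA editing rose in 5 of 8 cases. Zbp1, a sensor of Z-form nucleic acid that can start necroptosis, rose from 5.38, 4.46 and 5.45 CPM to 47.9, 21.4 and 28.1 CPM (2.67 ± 0.33). Ddx60 rose by 1.75 ± 0.26, and the double-stranded RNA sensor Ifih1 (MDA5) by 1.18 ± 0.18. The kinase Eif2ak2 (PKR, 0.30 ± 0.12), the RNA editor Adar (0.46 ± 0.14) and Helz2 (0.07 ± 0.24) were not called.

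The ISG15 and ubiquitin genes rose in 6 of 6 cases. Isg15, a ubiquitin-like modifier, rose from 11.4, 8.6 and 12 CPM to 55.6, 26.5 and 48.1 CPM (2.02 ± 0.35). Usp18, the protease that removes ISG15 and also dampens the receptor, rose from 6.88, 4.26 and 6.81 CPM to 27.2, 15.2 and 19.7 CPM (1.79 ± 0.29). The ubiquitin ligases Trim25 (0.69 ± 0.12) and Herc6 (0.83 ± 0.22), which joins ISG15 to its targets, rose least of the group, without overlap between the genotypes. The ADP-ribosyltransferases Parp9, Parp12 and Parp14 and the ligase Dtx3l, a partner of Parp9, rose in 4 of 4 cases, and Dtx3l led with 1.51 ± 0.24.

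Among antiviral effectors 5 of 6 rose in M0. Rsad2 (viperin), which makes a chain-terminating nucleotide, rose from 12.9, 8.72 and 13.1 CPM to 135, 76.1 and 93.5 CPM (3.13 ± 0.48), and its neighbor Cmpk2, a nucleotide kinase, by 2.39 ± 0.41. The exonuclease Isg20 rose by 2.44 ± 0.33. Bst2 was at 212, 174 and 147 CPM and at 252, 178 and 406 CPM and was called (0.65 ± 0.25, adjusted p = 0.03834), although its genotypes overlapped. Samd9l (0.45 ± 0.22, adjusted p = 0.1081) did not pass.

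In the remaining group 8 of 11 rose. Ifi44 rose from 0.684, 0.908 and 1 CPM to 9.63, 3.85 and 4.38 CPM (2.76 ± 0.46), and Ifi47, an interferon-inducible GTPase, from 19.4, 18.6 and 21.2 CPM to 124, 59.1 and 58.6 CPM (2.03 ± 0.34). Ifi35, Phf11d and Lgals3bp were not called, at 0.37 ± 0.22, 0.77 ± 0.32 and 0.52 ± 0.18.

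**Figure D2:**
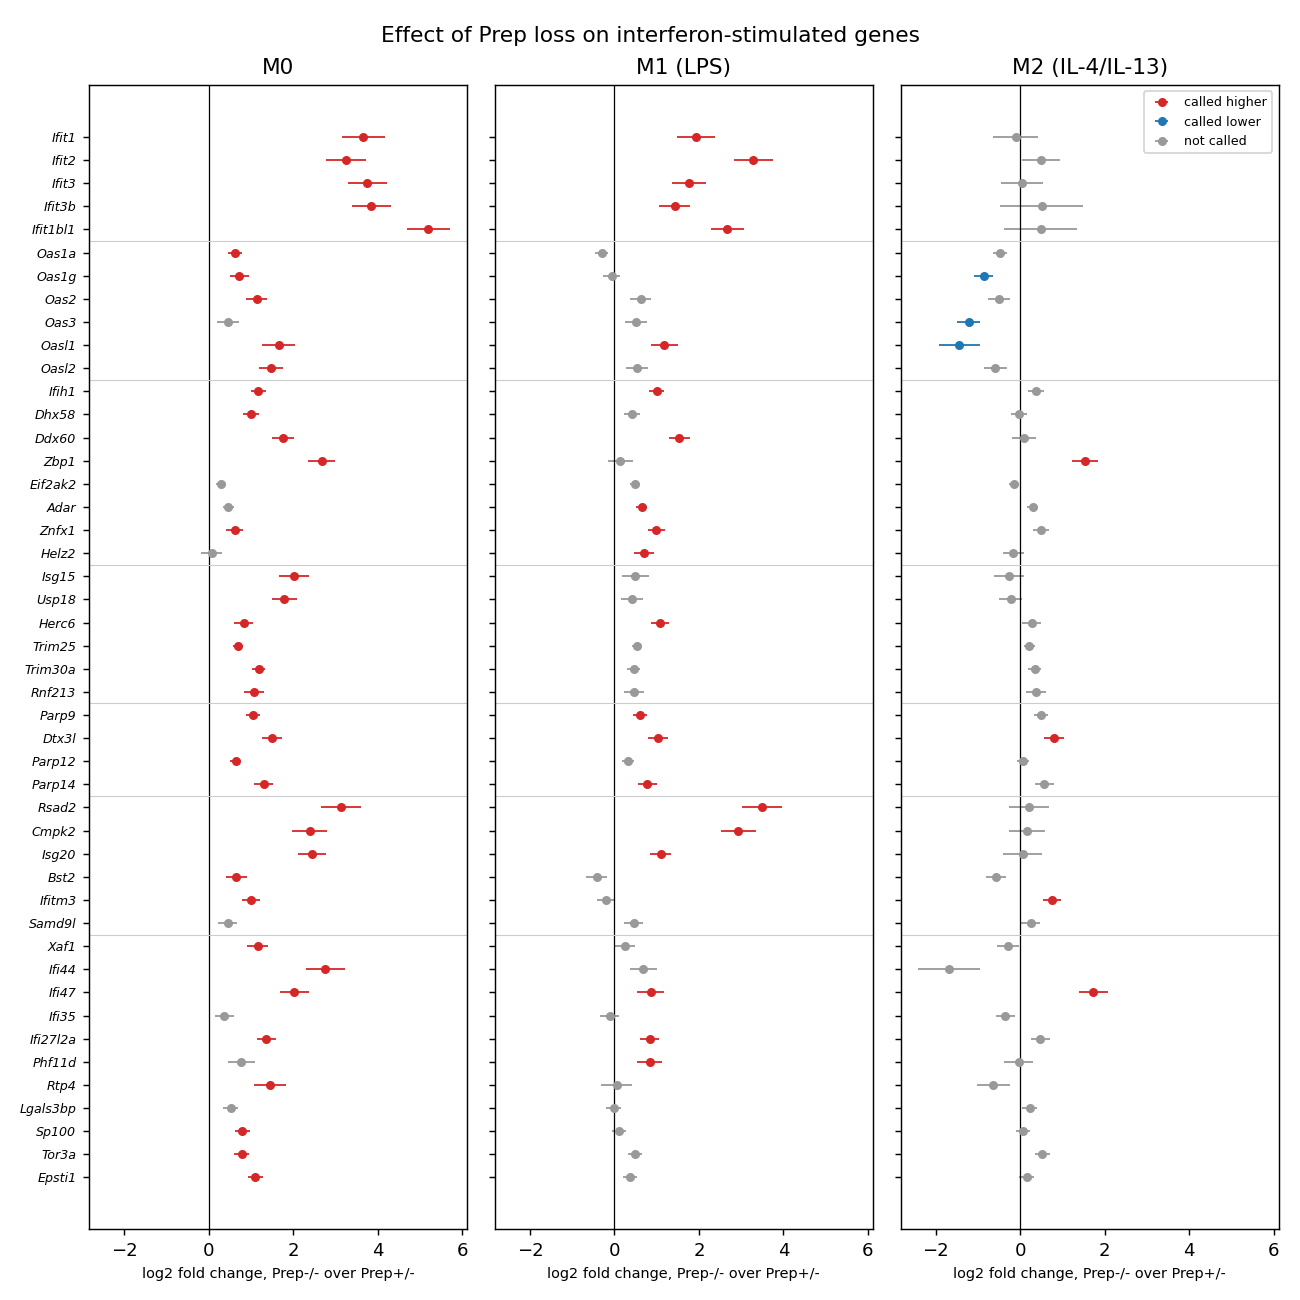
Each row is a gene, the 3 panels are M0, M1 and M2, and points with bars give the log2 fold change of Prep-/- over Prep+/- with its SE (3 libraries a group). All 46 points lie right of 0 in M0, 40 do in M1 and 28 in M2, and the Ifit genes reach furthest in M0.

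Several marker lists moved with the M0 comparison, while the stromal list overlapped between the genotypes. The summed macrophage list was at 19002 to 22408 CPM in Prep+/- M0 and at 30386 to 48180 CPM in Prep-/- M0. Of 8 markers of plasmacytoid dendritic cells, known producers of type I interferon, 7 had a row, and their sum was 57.4 to 61.8 CPM against 122 to 154 CPM. Nearly all of it was Tcf4, at 50.7 to 56.2 CPM against 116 to 148 CPM. Runx2, at 4.97 to 5.69 CPM against 4.65 to 4.98 CPM, and Cox6a2, at 0.638 to 1.04 CPM against 0.569 to 1.34 CPM, overlapped between the genotypes. Of the defining genes, Siglech had 0 counts in every Prep+/- M0 library and 4, 16 and 9 counts in Prep-/- M0, Ccr9 had 0 counts in Prep-/- M0, Klk1 was at 0 or 1 count, and Pacsin1 at 3 counts or fewer. Granulocyte precursor markers summed to 17.2 to 22.3 CPM against 36.0 to 83.8 CPM, and B cell markers, 3 of 5 with a row, to 3.01 to 4.79 CPM against 8.66 to 11.5 CPM. Stromal markers summed to 12.9 to 16.0 CPM against 0.784 to 17.8 CPM, with Col1a1 at 143, 144 and 3 counts in Prep-/- M0. The part of these cells in the result was not tested.

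The second comparison was made after LPS. In M1, 21 of the 46 members rose in Prep-/- BMDMs and none fell, where 12.3% of all genes tested rose and 10.2% fell. The median was 0.57 over the members and 0.04 over all genes tested. Every Prep-/- library lay above every Prep+/- library for 32 members, against 29.8% of all genes tested, and below for 2 (Oas1a and Bst2), against 27.1%. By edgeR 0 members were lower at an unadjusted p under 0.05, and DESeq2 called 20 higher and 0 lower.

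Rsad2 rose most in M1. It was at 244, 199 and 259 CPM in Prep+/- and at 4564, 1063 and 2286 CPM in Prep-/- (3.49 ± 0.48, adjusted p = 0.0001161), an 11.3-fold difference, and it rose by 2.83 without replicate 1 of Prep-/- M1. Ifit2 rose from 222, 165 and 225 CPM to 3280, 969 and 1722 CPM (3.29 ± 0.46, adjusted p = 0.0001436). Cmpk2 rose from 124, 102 and 141 CPM to 1568, 383 and 860 CPM (2.94 ± 0.41, adjusted p = 0.0001264), and by 2.33 without that replicate. Ifit1bl1 rose from 35.8, 24.9 and 40.8 CPM to 349, 90.3 and 206 CPM (2.67 ± 0.40, adjusted p = 0.000212). In all 4 genes replicate 1 of Prep-/- was the highest and replicate 2 the lowest library of its group, and the genotypes did not overlap.

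By role, the IFIT genes again rose in 5 of 5 cases, with a median of 1.92, and the sensors in 5 of 8, among them Ddx60 (1.54 ± 0.24), Ifih1 (1.0 ± 0.18) and Adar (0.64 ± 0.14). Parp9, Dtx3l and Parp14 rose by 0.60 ± 0.16, 1.04 ± 0.23 and 0.78 ± 0.23. Of the OAS group 1 of 6 rose, Oasl1, and of the ISG15 and ubiquitin group 1 of 6, Herc6 (1.07 ± 0.22). Both counts of 1 of 6 are near the 12.3% of all genes tested that rose in M1. Isg15 was at 479, 649 and 648 CPM and at 1066, 586 and 847 CPM, and did not pass the test (0.49 ± 0.32, adjusted p = 0.2425). Usp18 (0.42 ± 0.26), Zbp1 (0.14 ± 0.29), Xaf1 (0.25 ± 0.23) and Rtp4 (0.05 ± 0.37) were not called either.

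Without replicate 1 of Prep-/- M1, 12 of the 21 members were still called, and 7.91% of all genes tested were then higher. Without replicate 1 of every group, 11 of them were called. Macrophage markers summed to 45757 to 47208 CPM in Prep+/- M1 and 31000 to 37043 CPM in Prep-/- M1, and the list of plasmacytoid dendritic cells to 42.5 to 44.5 CPM and 63.1 to 90.6 CPM, with Siglech at 2 counts or fewer. Within that list Tcf4 was at 39.4 to 40.3 CPM against 51.8 to 77.3 CPM, Cox6a2 at 1.76 to 2.08 CPM against 5.75 to 6.76 CPM and Runx2 at 0.45 to 1.67 CPM against 4.24 to 6.34 CPM. Ccr9, of the same list, had 8, 2 and 7 counts in Prep+/- M1 and 1, 5 and 5 counts in Prep-/- M1. Klk1 had 0 counts in M1 of both genotypes, and Pacsin1 had 5 counts or fewer. B cell markers summed to 2.06 to 2.59 CPM in Prep+/- M1 and 5.09 to 6.96 CPM in Prep-/- M1. Stromal markers summed to 18.7 to 21.2 CPM and 6.16 to 17.7 CPM in the same order. Granulocyte precursor markers were at 22.5 to 39.1 CPM and 17.4 to 24.3 CPM, and overlapped. The part of these cells was not tested.

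The third comparison was made after IL-4 and IL-13. In M2, 4 members rose in Prep-/- BMDMs, where 6.37% of all genes tested rose, and 3 fell, where 9.82% fell. Both counts are near the background. The median was 0.12 over the members and 0.03 over all genes tested. Every Prep-/- library lay above every Prep+/- library for 9 members, against 21.2% of all genes tested, and below for 5, against 20.9%.

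Ifi47 was at 30, 16.8 and 17.7 CPM in Prep+/- M2 and at 93.4, 82 and 38.4 CPM in Prep-/- M2 (1.73 ± 0.34, adjusted p = 0.001387). Zbp1 rose from 14.1, 7.59 and 6.64 CPM to 36.2, 28.4 and 17.9 CPM (1.54 ± 0.31, adjusted p = 0.001739). Dtx3l rose from 35.6, 33 and 26.2 CPM to 62.4, 62.4 and 39.2 CPM (0.79 ± 0.24, adjusted p = 0.02239). Ifitm3 rose from 154, 86.9 and 87.4 CPM to 226, 170 and 161 CPM (0.76 ± 0.21, adjusted p = 0.0142), and none of the 4 overlapped between the genotypes. Ifi47 and Zbp1 were called in M2 under every alternative run. Without replicate 2 or 3 of Prep+/- M2, or without replicate 1 of Prep-/- M2, 2 members were called higher, and without replicate 3 of Prep-/- M2 7 were.

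The 3 members that fell in M2 belong to the OAS group. Ifi44, outside that group, had the most negative fold change in M2 and was not called (-1.69 ± 0.74), but it was called lower by DESeq2 and with a replicate block within the libraries compared. Its value was -0.61 without replicate 1 of Prep+/- M2 and -2.39 without replicate 1 of Prep-/- M2. Oasl1 was at 4.69, 1.72 and 2.18 CPM in Prep+/- and at 1.26, 0.5 and 1.39 CPM in Prep-/- (-1.44 ± 0.49, adjusted p = 0.04235). Oas3 was at 59.3, 31.1 and 24.5 CPM and at 17.7, 18.8 and 12.9 CPM (-1.22 ± 0.27, adjusted p = 0.003223), and Oas1g at 19.9, 10.2 and 12.2 CPM and at 6.99, 7.45 and 8.72 CPM (-0.87 ± 0.22, adjusted p = 0.009818). All 6 fold changes of the group were negative in M2, with a median of -0.73. In all 3 genes replicate 1 was the highest Prep+/- library, and without it 1 of the 3 was called lower. The summed list of plasmacytoid dendritic cells was at 45.5 to 49.9 CPM in Prep+/- M2 and 40.6 to 52.1 CPM in Prep-/- M2. In the same order, macrophage markers were at 10027 to 12203 CPM and 13889 to 19565 CPM. Granulocyte precursor markers were at 10.7 to 12.7 CPM and 14.1 to 22.5 CPM. Stromal markers were at 0.0839 to 14.4 CPM and 1.06 to 6.135 CPM, and the part of these cells was not tested.

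The 5 IFIT genes were low in M2 of both genotypes, and none was called. Ifit1bl1 had 14, 3 and 10 counts in Prep+/- and 13, 11 and 9 counts in Prep-/-, and Ifit3b had 4, 6 and 6 counts and 11, 3 and 6 counts, and counts this low limit the difference that could be detected. Ifit1 was at 8.23, 1.47 and 2.81 CPM and at 5.94, 2.5 and 3.21 CPM (-0.10 ± 0.53). Without replicate 1 of Prep+/- M2 its log2 fold change was 0.87, still not called.

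**Figure D3:**
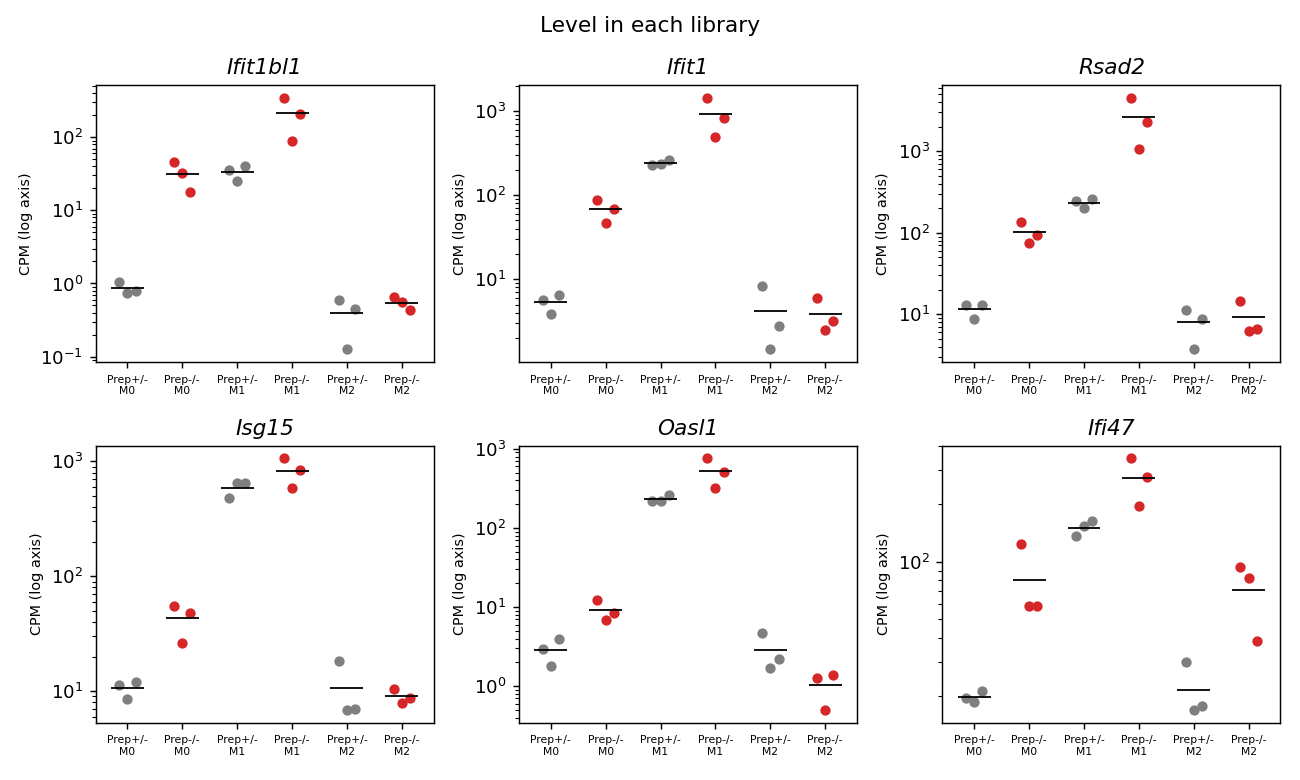
CPM per library on a log axis for Ifit1bl1, Ifit1, Rsad2, Isg15, Oasl1 and Ifi47 in the 6 groups, with Prep+/- in gray, Prep-/- in red and the group mean as a black bar. The red points of Ifit1bl1 in M0, at 17.7 to 45.2 CPM, lie at the height of the gray points in M1, at 24.9 to 40.8 CPM, while in M2 both genotypes are low.

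Across the 3 states, 15 members were called higher in M0 and M1 and not called in M2, as were 3.09% of all genes tested, and 17 were called higher in M0 alone, as were 7.72%. Dtx3l and Ifi47 were called higher in all 3 states, although the call of Ifi47 in M1 held under 6 of 16 alternatives and that of Dtx3l in M2 under 10 of 17. Zbp1 and Ifitm3 were called higher in M0 and M2, and Oasl1 in M0 and M1 but lower in M2. Oas1g was called higher in M0 and lower in M2. Adar, Helz2 and Phf11d were called in M1 alone, and Oas3 in M2 alone. Eif2ak2, Samd9l, Ifi35 and Lgals3bp were called in no state. A call in one state and not in another does not show a difference between them, and that difference was tested next.

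The knockout effect in M1 was smaller than in M0 for 14 members and larger for none, by an interaction term fitted to all libraries. Over all genes tested, 9.15% had a smaller and 12.0% a larger one. Smaller, here and below, means a lower signed log2 fold change, so that a rise in M0 with a fall in the other state counts as smaller. Of the 14, Oas1a, Bst2 and Ifitm3 were at -0.30, -0.42 and -0.20 in M1 and were not called there. By edgeR 0 members had a larger effect at an unadjusted p under 0.05, and DESeq2 called 19 smaller and 0 larger. The count was 6 without replicate 2 of Prep+/- M0, 7 without replicate 1 of Prep-/- M0 or replicate 2 of Prep-/- M1, and 9 without replicate 3 of Prep+/- M1. Zbp1 differed most, with an effect of 2.67 in M0 and 0.14 in M1 (difference -2.53 ± 0.43, adjusted p = 0.0006949). Its Prep-/- and Prep+/- libraries in M1, at 402, 291 and 355 CPM and at 287, 332 and 332 CPM, overlapped. Ifit1bl1 (-2.53 ± 0.64, adjusted p = 0.009507) and Ifit3b (-2.42 ± 0.58, adjusted p = 0.007348) followed, and both were still called in M1 itself. The difference of Ifit3b was -1.74 without replicate 1 of Prep-/- M0. For Rsad2, Cmpk2 and Ifit2 the difference was 0.36 ± 0.63, 0.54 ± 0.55 and 0.03 ± 0.62 and did not pass the test. It was -0.30 for Rsad2 and -0.06 for Cmpk2 without replicate 1 of Prep-/- M1, so that 1 library sets their sign.

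The effect in M2 was smaller than in M0 for 23 members and larger for none, with negative differences in all 46. Over all genes tested, 4.13% had a smaller and 4.53% a larger one. Among these 23, Oas3, Oas1g and Oasl1 changed sign, from 0.46, 0.73 and 1.66 in M0 to -1.22, -0.87 and -1.44 in M2, where they were called lower. The edgeR test had 0 members with a larger effect at an unadjusted p under 0.05, and DESeq2 called 26 smaller and 0 larger. Ifit1bl1 (-4.72 ± 1.10, adjusted p = 0.01476), Ifi44 (-4.45 ± 0.86, adjusted p = 0.005567) and Ifit1 (-3.76 ± 0.72, adjusted p = 0.005232) differed most. The difference was -3.37 for Ifi44 and -2.79 for Ifit1 without replicate 1 of Prep+/- M2, and without replicate 1 of Prep-/- M2 it was -5.14 for Ifi44. All 6 OAS genes were among the 23, as were Isg15 (-2.28 ± 0.49, and -1.64 without replicate 1 of Prep+/- M2) and Rsad2 (-2.93 ± 0.67). Ifi47 (-0.30 ± 0.47), Ifitm3 (-0.24 ± 0.29) and Zbp1 (-1.13 ± 0.44, adjusted p = 0.1155), called higher in M2, were not. Without replicate 1 of Prep+/- M2, 15 of the 23 were called, and without replicate 1 of every group 2, when 0.456% of all genes tested had a smaller effect.

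LPS raised all 46 members in Prep+/- BMDMs and all 46 in Prep-/- BMDMs, where 16.7% and 20.9% of all genes tested rose and 20.9% and 21.0% fell. The Prep+/- and Prep-/- responses each use M0 and M1 libraries that the knockout comparisons use too. The median log2 fold change was 2.85 in Prep+/- and 2.17 in Prep-/-, against -0.03 and 0.00 over all genes tested. The range was 0.91 (Trim25) to 6.62 in Prep+/- and 0.73 (Oas2) to 5.86 in Prep-/-. For falls, edgeR had 0 members at an unadjusted p under 0.05 in either genotype, and DESeq2 called 0.

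In Prep+/- cells Ifi44 rose most, from 0.684, 0.908 and 1 CPM to 85.7, 85.5 and 86.5 CPM (6.62 ± 0.46). Oasl1 rose from 2.96, 1.78 and 3.93 CPM to 220.0, 217 and 260.4 CPM (6.33 ± 0.43), and Zbp1 from 5.38, 4.46 and 5.45 CPM to 287, 332 and 332 CPM (5.96 ± 0.36). The 3 libraries of Prep+/- M1 lay close together for these genes. In Prep-/- cells Oasl1 rose from 12.1, 6.82 and 8.44 CPM to 760.2, 322 and 503 CPM (5.86 ± 0.41). Rsad2 rose by 4.70 ± 0.51, and by 4.0 without replicate 1 of Prep-/- M1. Ifi44 rose from 9.63, 3.85 and 4.38 CPM to 177, 94.4 and 143 CPM (4.54 ± 0.39). No library of M0 reached the M1 level in any of these genes.

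Unstimulated Prep-/- libraries came up to the level of LPS-treated Prep+/- libraries for a few members. The ranges of Prep-/- M0 and Prep+/- M1 overlapped for 4 of 46, namely Ifit1bl1, Oas2, Dtx3l and Ifi27l2a, where they overlapped for 37.3% of all genes tested. Oas2 was at 81, 64.1 and 50.8 CPM in Prep-/- M0 and at 69, 62.7 and 80.2 CPM in Prep+/- M1. For the other members all Prep-/- M0 libraries lay below all Prep+/- M1 libraries, as they did for 31.8% of all genes tested.

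IL-4 and IL-13 changed few members in Prep+/- cells and many in Prep-/- cells. In Prep+/- 2 members rose and 3 fell, where 6.09% of all genes tested rose and 6.77% fell, so that both shares are near the background. In Prep-/- 36 fell and none rose, where 15.5% fell and 14.7% rose. Of the rises, Tor3a alone had an unadjusted p under 0.05 in Prep-/- by edgeR, and DESeq2 called 0. The median log2 fold change was -0.24 in Prep+/- and -1.18 in Prep-/-, against -0.01 and -0.02 over all genes tested. The Prep-/- comparison rests on the same M0 libraries in which the members were high.

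In Prep+/- cells Usp18 rose from 6.88, 4.26 and 6.81 CPM to 40, 23.7 and 22.8 CPM (2.27 ± 0.29), and Tor3a, an endoplasmic reticulum ATPase, from 54.9, 54.9 and 52.5 CPM to 93.6, 91.1 and 101 CPM (0.81 ± 0.18). Ifit3b fell from 1.05, 1.03 and 1.56 CPM to 0.17, 0.252 and 0.268 CPM (-2.38 ± 0.75), and this call was lost when any 1 of the 6 libraries was left out. Ifitm3 fell from 250.1, 225 and 224 CPM to 154, 86.9 and 87.4 CPM (-1.09 ± 0.21), and Oas2 from 29.1, 28 and 32.1 CPM to 21.2, 12.5 and 12.2 CPM (-0.96 ± 0.25). None of these 5 genes overlapped between the states, and Usp18, in the same cells, had by far the larger rise. Replicate 1 of Prep+/- M2 was the highest of its group for 42 members, and without it 7 members fell, while without replicate 2 or 3 of that group 1 fell.

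In Prep-/- cells Ifit1bl1 fell from 45.2, 32.5 and 17.7 CPM to 0.654, 0.55 and 0.431 CPM (-5.85 ± 0.56). Ifit3b fell to 0.553, 0.15 and 0.288 CPM (-5.72 ± 0.57), with -5.04 without replicate 1 of Prep-/- M0 and -6.31 without replicate 1 of Prep-/- M2. Ifit3 fell to 4.78, 4 and 2.35 CPM (-4.51 ± 0.49). All of the IFIT (5 of 5) and OAS (6 of 6) genes fell, as did 5 of 8 sensors. Zbp1 (-0.24 ± 0.30), Ifi47 (-0.18 ± 0.33) and Usp18 (0.26 ± 0.27) were not called.

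**Figure D4:**
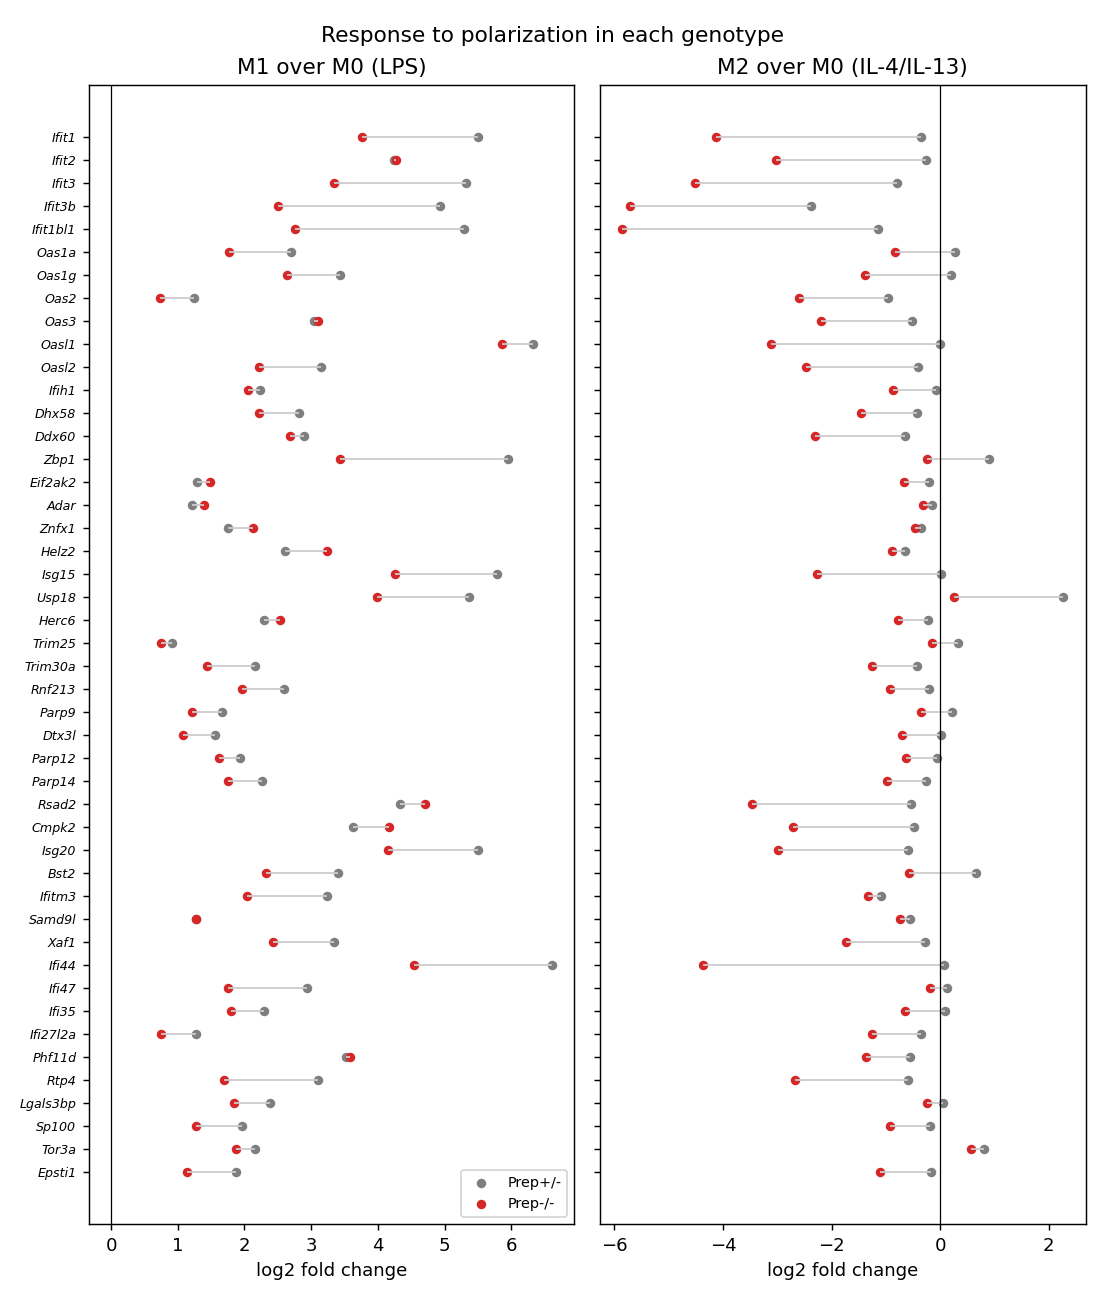
The log2 fold change of M1 over M0 and of M2 over M0 for each gene, in Prep+/- and in Prep-/- (3 libraries a group). All 46 genes lie above 0 for M1 in both genotypes, while for M2 the Prep-/- points lie below the Prep+/- points for all 46 genes, down to -5.85 for Ifit1bl1.

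Of the genes upstream of the members, the interferon genes themselves were scarcely counted. Of 21 listed ligands 4 had a row, and Ifne, Ifnk and Ifnz were at 3 counts or fewer in every library. Ifnb1, the interferon that macrophages make after LPS, had 0 counts in all Prep+/- M0, 2, 0 and 0 in Prep-/- M0, and 0 in every M2 library. In M1 it had 13, 5 and 4 counts in Prep+/- and 78, 11 and 40 in Prep-/- (2.40 ± 0.75, adjusted p = 0.02861), and the genotypes overlapped. Ifnb1 mRNA was thus not detectable in M0 at this depth beyond those 2 counts, and the 17 ligands without a row, all listed Ifna genes among them, were not analysed here.

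Of 5 receptor genes tested, 3 rose in Prep-/- M0, where 15.4% of all genes tested rose. The type I receptor chain Ifnar2 was at 121, 118 and 118 CPM in Prep+/- and at 197, 164 and 179.7 CPM in Prep-/- (0.60 ± 0.11). The interferon gamma receptor chains Ifngr1 and Ifngr2 rose by 1.20 ± 0.12 and 0.67 ± 0.10. In M1 Ifngr1 alone rose (1.08 ± 0.12), where 12.3% of all genes tested rose, and in M2 none was called. Ifnar1 was not called in any state, at -0.16 ± 0.16, 0.54 ± 0.16 and 0.30 ± 0.16.

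Of 5 JAK-STAT signaling genes 3 rose in M0, 3 in M1 and none in M2, where 15.4%, 12.3% and 6.37% of all genes tested rose. Stat2 and Irf9, which are subunits of ISGF3, rose in M0 by 0.97 ± 0.21 and 0.68 ± 0.13. Stat2 was at 40.6, 34.5 and 43.6 CPM in Prep+/- M0 and at 91.6, 83.5 and 57.2 CPM in Prep-/- M0. In M1 Stat2 rose (1.31 ± 0.21), and Irf9 did not pass (0.19 ± 0.13). The kinase Jak1 rose in M0 (0.65 ± 0.18), with libraries that overlapped, and Jak2 (0.89 ± 0.21) and Tyk2 (0.67 ± 0.14) rose in M1.

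Of 23 tested genes that act in the induction of interferon through TLR4, RNA sensors or cGAS and STING, 14 rose and 1 fell in M0. In M1 6 rose and 1 fell, and in M2 7 rose and 1 fell. Over all genes tested, 15.4%, 12.3% and 6.37% rose and 17.2%, 10.2% and 9.82% fell in M0, M1 and M2. Irf7, the factor that amplifies interferon transcription and is itself interferon-stimulated, rose in M0 from 29.8, 22.3 and 30.9 CPM to 152, 77.6 and 77.2 CPM (1.89 ± 0.35), and was at 0.15 ± 0.34 in M1. Cgas, the DNA sensor, fell in M0 (-1.36 ± 0.22) and M2 (-0.98 ± 0.23) and rose in M1 (0.61 ± 0.22), and its partner Sting1 rose in M0 (0.82 ± 0.13). Cd14, the LPS co-receptor, rose in M0 (0.85 ± 0.19) and fell in M1 (-0.93 ± 0.19). Of 10 genes of negative feedback 2 rose in M0, Socs3 (1.53 ± 0.22) and Irf2 (0.62 ± 0.18), 3 in M1 and none in M2. The count in M0 is near the 15.4% of all genes tested that rose there. Socs1 was not called in any state.

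**Figure D5:**
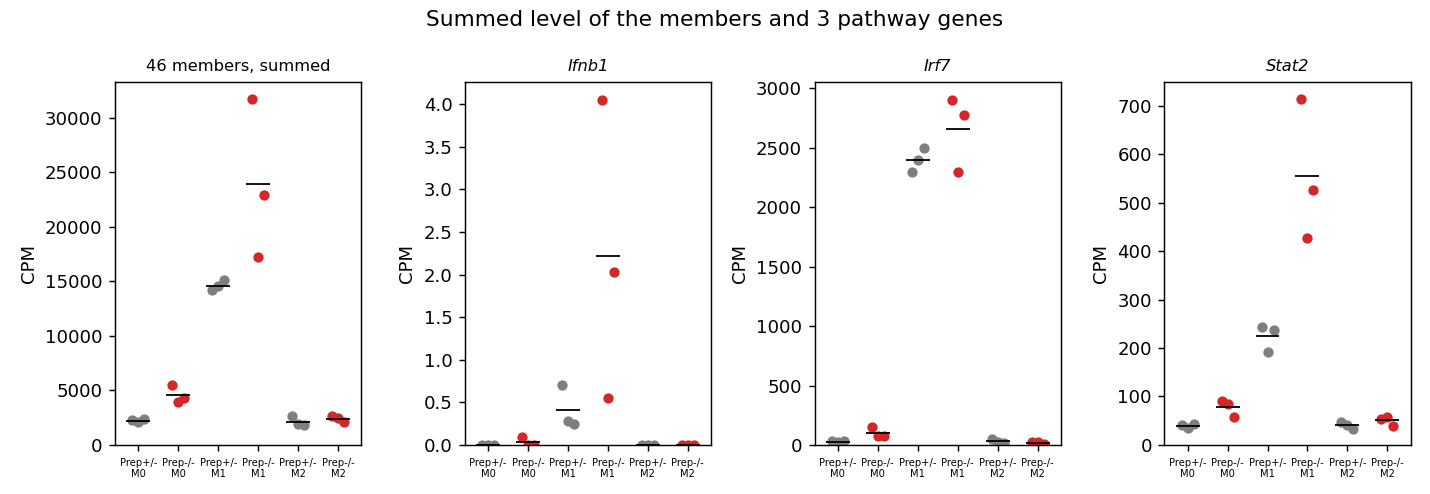
The summed CPM of the 46 genes, Ifnb1, Irf7 and Stat2 in each of the 18 libraries, by group and genotype. The Prep-/- M1 sums, at 17190 to 31744 CPM, and the Prep-/- M0 sums, at 3964 to 5465 CPM, lie above their Prep+/- groups, and Ifnb1 stands at 0.242 to 4.05 CPM in M1 and near 0 elsewhere.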

How the data were processed

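Bulk RNA-seq libraries from 6 groups of 3 were analysed. The authors trimmed reads with Trimmomatic 0.36, aligned them to GRCm39 with HISAT2 2.2.1.0, assembled transcripts with stringtie2 and deposited whole-number counts per gene symbol, without normalization. The annotation release and the counting by strand are not given in the sources used here, so that overlapping genes such as Dtx3l and Parp9 are uncertain.

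Counts were tested with edgeR 4.0.16 (limma 3.58.1, R 4.3.3): filterByExpr on the 6 groups, TMM, and the quasi-likelihood test in a single fit of all 18 libraries, with a coefficient for each group and a common biological coefficient of variation of 0.167. A group at 3 counts or fewer in each library was taken as at the floor, and floors cover counting error only. The script was tested on simulated data. Differences of the knockout effect between states were tested as interaction terms. Named with values per library were, by size of the fold change, up to 4 called members in each direction of each knockout comparison and up to 3 in the others. Further genes are given as examples of their role, chosen after their values were seen, and 1 pathway gene is not reported here. The members, the role, pathway and marker lists and the tests were chosen with earlier results of these data known, and 2 alternatives were added after the data were seen (a replicate block within the libraries compared, and leaving out replicate 1 of every group). The other alternatives were DESeq2 1.42.0, RLE size factors, other filters and fold criteria, glmTreat, only the libraries compared, a replicate block, members without near-identical copies, and leaving out each library in turn.

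Replicate numbers are shared between groups, but no source says what a number marks. The correlation of same-numbered libraries, taken on their deviations from group means, was 0.249, 0.255 and 0.462 for the knockout in M2 and 0.201, 0.169 and 0.259 for LPS in Prep-/- cells, which were taken as paired, and in the other comparisons at least 1 pair was at 0.00970 or lower.

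Gene positions came from GENCODE on GRCm39, possibly another release than that of the counts. Near-identical transcripts were searched with blastn 2.17.0 at 90% identity over 200 bases, and matplotlib 3.10.9 (Python 3.11.15) drew the figures.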

Additional observations from a re-analysis of the deposited data

Results flagged for a closer look

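The results below were singled out because the knockout effect, the log2 fold change of Prep-/- over Prep+/-, differed between 2 states by an interaction term in the edgeR fit. Each value is a difference of log2 fold changes. A negative value means a lower signed log2 fold change than in M0, which includes a change from a rise to a fall. Both families of differences use the same M0 libraries.

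Between M1 and M0 the difference passed for 14 members: Ifit3 (-1.99), Ifit3b (-2.42), Ifit1bl1 (-2.53), Oas1a (-0.92), Zbp1 (-2.53), Isg15 (-1.53), Usp18 (-1.37), Trim30a (-0.73), Isg20 (-1.35), Bst2 (-1.07), Ifitm3 (-1.20), Ifi44 (-2.07), Sp100 (-0.69) and Epsti1 (-0.73). Between M2 and M0 it passed for 23 members: Ifit1 (-3.76), Ifit2 (-2.76), Ifit3 (-3.71), Ifit1bl1 (-4.72), Oas1a (-1.11), Oas1g (-1.59), Oas2 (-1.64), Oas3 (-1.68), Oasl1 (-3.10), Oasl2 (-2.06), Dhx58 (-1.03), Ddx60 (-1.66), Isg15 (-2.28), Usp18 (-2.01), Trim30a (-0.84), Rsad2 (-2.93), Cmpk2 (-2.22), Isg20 (-2.39), Bst2 (-1.22), Xaf1 (-1.46), Ifi44 (-4.45), Rtp4 (-2.09) and Epsti1 (-0.94). Ifit3, Ifit1bl1, Oas1a, Isg15, Usp18, Trim30a, Isg20, Bst2, Ifi44 and Epsti1 stand in both lists. Groups of 3 libraries are too small for a test of single outlying samples.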

How the results depend on the processing

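Depth limits the low members, such as Ifit1bl1 and Ifit3b in M2, and with 3 libraries a group single libraries decide several counts. No member called in the main analysis or under an alternative had the opposite sign in the other. Of 414 log2 fold changes, 51 that were not called took the other sign under at least 1 alternative, the largest of them 0.81 in size. When 1 library or replicate 1 of every group was left out, the 38 members called higher in M0 ranged from 32 to 39, the 46 called higher after LPS in Prep-/- from 43 to 46, and the 36 lower after IL-4 and IL-13 in Prep-/- from 27 to 36.

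With a fold change over 2, 12 members rather than 21 were called higher in M1, 2 rather than 4 in M2, and 1 rather than 2 after IL-4 and IL-13 in Prep+/-. This criterion also drops members called higher in M0, among them Oas1a (log2 fold change 0.62), Parp12 (0.64), Bst2 (0.65) and Trim25 (0.69). From those with a smaller effect in M1 than in M0 it drops Oas1a (-0.92), Sp100 (-0.69), Epsti1 (-0.73) and Trim30a (-0.73). From those in M2 it drops Epsti1 (-0.94) and Trim30a (-0.84). With glmTreat against a fold change of 1.5, the counts were 7 higher in M1, 2 higher and 0 lower in M2, 1 higher and 0 lower after IL-4 and IL-13 in Prep+/-, 3 with a smaller effect in M1 than in M0 and 6 in M2 than in M0. These stricter criteria call fewer genes by construction. In a fit of only the libraries compared, 1 member was lower in M2, and 4 were higher and 5 lower after IL-4 and IL-13 in Prep+/-. Without a fold criterion 1 member was called higher after IL-4 and IL-13 in Prep-/- rather than 0.

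Leaving out libraries gave 11 to 24 members higher in M1, 2 to 7 higher and 1 to 4 lower in M2, 1 to 8 lower after IL-4 and IL-13 in Prep+/- and 0 to 1 higher in Prep-/-. It gave 6 to 19 with a smaller effect in M1 than in M0, and 2 to 25 in M2 than in M0. Without replicate 1 of Prep-/- M1, 12 were higher in M1. When replicate 1 of Prep+/- M2 was left out, 1 was lower in M2, 7 were lower after IL-4 and IL-13, and 15 had a smaller effect in M2 than in M0. When replicate 1 of every group was left out, these counts were 11, 1, 8 and 2, and 1 member was higher after IL-4 and IL-13 in Prep-/-. The cause was not tested.

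With a replicate block in the fit of all libraries, 37 members were higher in M0 and 22 in M1, M2 had 4 higher and 3 lower, and 20 and 26 had a smaller effect in M1 and in M2 than in M0. In the comparisons whose numbers paired the libraries, a block within the libraries compared gave 4 higher and 4 lower in M2, the added gene being Ifi44, and 46 higher after LPS in Prep-/-.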

Other observations

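LPS genes driven mainly by NF-kappaB moved otherwise than the interferon-stimulated genes between the genotypes. Of 15 such genes, listed for comparison with earlier results known, all 15 rose with LPS in Prep+/- and in Prep-/- BMDMs. Over all genes tested, 16.7% rose with LPS in Prep+/- and 20.9% in Prep-/-. In M1 10 of the 15 were lower in Prep-/-, where 10.2% of all genes tested were lower. The median log2 fold change of the 15 in M1 was -1.41, against 0.04 over all genes tested. Il1b, a fever-inducing cytokine, was at 609.9, 891 and 898 CPM in Prep+/- M1 and at 96.2, 204 and 200 CPM in Prep-/- M1 (-2.26 ± 0.37, adjusted p = 0.0003848). Cxcl3, a neutrophil chemokine, was at 155, 293 and 242 CPM and at 6.76, 6.5 and 9.97 CPM (-4.89 ± 0.27), and neither gene overlapped between the genotypes. In M0 2 of the 15 rose (Il1b and Nfkbiz) and 1 fell (Tnf). As 15.4% of all genes tested rose and 17.2% fell in M0, neither count is above the background. The median log2 fold change of the 15 in M0 was -1.24, against 0.02 over all genes tested. Of the 15 fold changes in M0, 10 were negative and 5 positive. In M2 Nfkbiz alone was called (1.21 ± 0.37), where 6.37% of all genes tested rose.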
